A study of Mus musculus with 6 samples.

Results

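Immediate early genes are the genes that a cell transcribes within minutes of a stimulus, without first making new protein. The set described here holds 10 of them: the zinc finger factors Egr1 and Egr2, the AP-1 subunits Fos, Fosb and Junb, the nuclear receptor Nr4a1, the small nuclear protein gene Ier2, the neuronal factor Npas4, the synaptic gene Arc and the phosphatase gene Dusp1. They were taken by gene symbol from a table of log2 signals of the vomeronasal organ (VNO), and the probe set with the highest mean stood for each gene. All 10 were measured, by 1 probe set each, among 22180 genes in all. The rule uses gene symbols and no measured value.

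The VNO, which lies at the base of the nasal septum, senses pheromones in mice. Basal sensory neurons of the VNO use V2R receptors and the G protein subunit Gnao1, and apical neurons use V1R receptors and Gnai2. Whole VNOs of mice at postnatal day 17 were measured, 3 wild-type samples and 3 AP-2e null samples, on 1 Affymetrix array each. AP-2e is the transcription factor of the gene Tfap2e. The sources used here do not give strain, sex, the number of animals in a sample or the nature of the null allele, and the p-values measure the spread between these samples. The organs were taken after death by CO2 with the animals on ice, and no stimulus is named.

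In neurons, calcium entry and the MAP kinase cascade switch immediate early genes on through factors already present in the nucleus. CREB binds the cAMP response element (CRE) and the serum response factor SRF binds the CArG box. Egr1 and Fos are widely used to mark VNO neurons that have just responded to a scent cue. The same genes also respond to growth factors, handling and injury in many other cell types, so in a whole organ their signal does not point to neurons alone.

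On every array the median signal over the probe sets lay between 4.997 and 5.079, and the number of arrays limits the precision. The signal of Tfap2e was 6.46, 6.76 and 6.92 in wild-type replicates 1, 2 and 3 and 5.97, 6.09 and 6.04 in the null replicates. It was lower on every null array, but the difference did not pass over all genes (adjusted p = 0.431 in limma). Neuron markers were present on every array. Omp, the marker of mature sensory neurons, read 9.93, 9.93 and 10.48 in the wild-type and 9.87, 9.46 and 9.79 in the null replicates. All null arrays thus lay below all wild-type arrays for Omp, but the difference of -0.41 did not pass (adjusted p = 0.873 in limma). Gnai2 lay between 10.52 and 10.84. For Xist, null replicate 1 read 10.64, and all 5 others read from 3.55 to 3.58. The supporting cell markers listed with this set had their highest mean on wild-type replicate 2, at 9.03, and their lowest on wild-type replicate 1, at 7.41.

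Upstream sequences are shown for 5 genes of the set, the 3 whose wild-type signals spread most between arrays (Fos, Nr4a1, Dusp1) and the 2 whose wild-type signals spread least (Junb, Npas4). The choice was made after the values were seen. Each is the 250 bases before the start site in RefSeq, build GRCm38.p6, read 5′ to 3′ on the gene's strand. Capitals mark TGACG, which is the start of the full CRE TGACGTCA, or its reverse complement CGTCA.
Fos, chr12:85473640-85473889, plus strand: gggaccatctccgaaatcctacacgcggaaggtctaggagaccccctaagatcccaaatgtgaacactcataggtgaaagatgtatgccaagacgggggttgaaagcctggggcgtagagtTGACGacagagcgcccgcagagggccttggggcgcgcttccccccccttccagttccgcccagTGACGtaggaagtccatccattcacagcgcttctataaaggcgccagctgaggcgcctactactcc
Nr4a1, chr15:101266596-101266845, plus strand: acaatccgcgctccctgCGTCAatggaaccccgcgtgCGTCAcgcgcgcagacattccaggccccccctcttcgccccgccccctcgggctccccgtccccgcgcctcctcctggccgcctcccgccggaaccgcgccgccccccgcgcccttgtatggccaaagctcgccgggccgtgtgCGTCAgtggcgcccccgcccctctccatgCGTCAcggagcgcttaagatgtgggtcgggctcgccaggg
Dusp1, chr17:26508473-26508722, minus strand: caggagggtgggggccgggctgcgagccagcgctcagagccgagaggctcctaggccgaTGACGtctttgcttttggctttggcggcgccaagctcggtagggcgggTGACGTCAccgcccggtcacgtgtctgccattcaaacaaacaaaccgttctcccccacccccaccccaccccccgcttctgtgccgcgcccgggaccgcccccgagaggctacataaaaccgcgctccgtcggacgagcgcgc
Junb, chr8:84978749-84978998, minus strand: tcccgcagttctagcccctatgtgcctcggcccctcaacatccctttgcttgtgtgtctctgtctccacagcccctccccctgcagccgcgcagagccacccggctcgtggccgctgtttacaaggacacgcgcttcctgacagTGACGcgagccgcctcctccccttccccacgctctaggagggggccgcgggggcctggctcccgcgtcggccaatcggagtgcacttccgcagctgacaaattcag
Npas4, chr19:4989972-4990221, minus strand: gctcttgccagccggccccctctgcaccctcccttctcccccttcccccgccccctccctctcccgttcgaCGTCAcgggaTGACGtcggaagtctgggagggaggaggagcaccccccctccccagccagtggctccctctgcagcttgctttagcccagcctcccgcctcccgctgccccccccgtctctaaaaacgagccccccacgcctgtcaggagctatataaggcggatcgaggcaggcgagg

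The RefSeq table held start sites for 7 of the 10 genes: Egr2, Fos, Fosb, Junb, Nr4a1, Npas4 and Dusp1. Motifs were searched on both strands of the 250 bases. TGACG stood before at least 1 start site of all 7 genes, and 19.8% of all 27025 genes in the table had it. It stood 4 times before Nr4a1, 3 times before Dusp1, 2 times before Fos and Npas4, and 1 time before Junb and Fosb. Dusp1 alone had the full CRE TGACGTCA, from -143 to -136 with the base before the start site counted as -1, which accounts for 2 of its 3 matches. That motif was found for 1.77% of all genes. The CArG box was found for Egr2, as CCATATATGG before 3 of its 5 start sites, whose windows overlap, and as CCTTTTTTGG before another, and for 1.62% of all genes. GCCNNNGGC, the core that AP-2 factors bind, was found for Egr2, Fos and Npas4, and for 15.4% of all genes. The AP-1 site TGANTCA and the Egr site GCGTGGGCG were found for 0 of the 7, and for 7.82% and 0.622% of all genes. TATAAA was found for Fos, and for 14.3% of all genes. The genes that spread between arrays and those that did not thus both carried TGACG. A match in these letters is a description and not a measured site.

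No gene of the set passed the test between genotypes. Of the 10 genes, 7 had a higher mean in null VNOs and 3 a lower one, and the median difference was 0.27 on the log2 scale. Over all 22180 genes, 49.4% had a higher mean and the median difference was -0.00052. In limma 0 of the 10 had a Benjamini-Hochberg adjusted p under 0.05 over all genes, where 50 genes, or 0.225%, did. At an unadjusted p under 0.05 there was 1 of the 10, Egr1, in limma, against 4.4% of all genes. In a plain one-way test there was 1 of the 10, against 634 of all 22180 genes. Wild-type and null values were fully separated for 3 of the 10, Egr1, Egr2 and Ier2, each with all null arrays above all wild-type arrays. Of all genes, 3.42% had null arrays separated upward in this way. These counts describe a list whose earlier results were known when it was chosen, and 10 genes that respond to the same signals are not independent of each other.

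**Figure D1:**
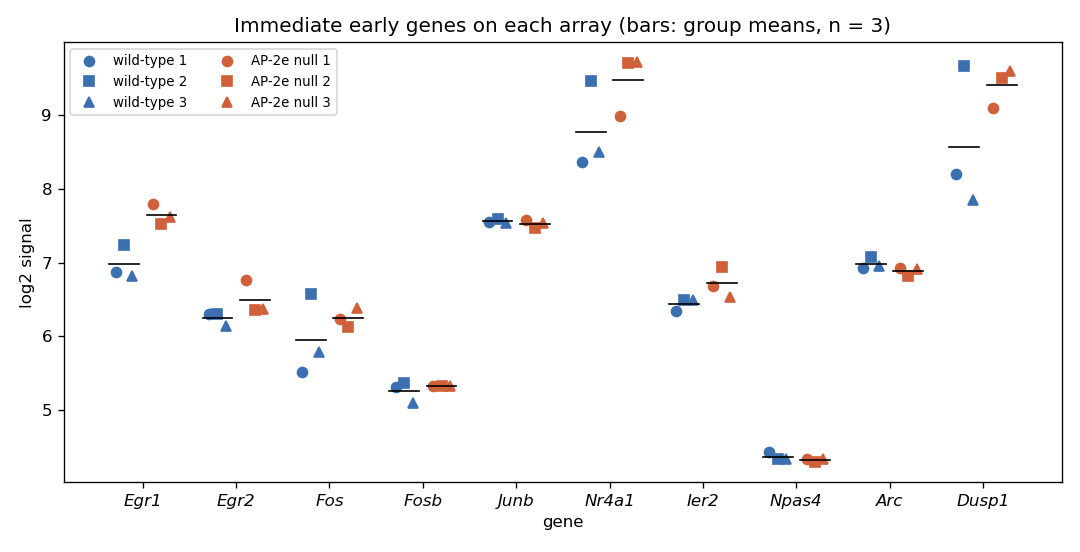
Log2 signal of the 10 immediate early genes on each of the 6 arrays, with wild-type arrays in blue and null arrays in orange; symbols give the replicate and bars the mean of 3 arrays. Egr1, Egr2 and Ier2 have all null arrays above all wild-type arrays, while wild-type replicate 2 lies near or above the null arrays for Fos, Nr4a1 and Dusp1. Levels of different genes come from different probes and are not to be compared.

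The Egr factors bind GC-rich sites in their target genes, and Egr1 showed the clearest separation of the set. Its log2 signal was 6.88, 7.24 and 6.82 in wild-type replicates 1, 2 and 3 and 7.79, 7.52 and 7.62 in null replicates 1, 2 and 3. The lowest null array thus lay above the highest wild-type array, which was again wild-type replicate 2. Group means of 6.98 ± 0.22 and 7.64 ± 0.14 (SD, n = 3 per genotype) differed by 0.67 (SE 0.14) or 1.59-fold, with an unadjusted p of 0.00322 and an adjusted p of 0.605 in limma. By unadjusted p Egr1 ranked 118 of all genes, so it was far from the threshold over all genes. The difference stayed between 0.59 and 0.79 when any single array was left out, with unadjusted p between 0.000871 and 0.0155 over all 16 alternatives and adjusted p between 0.257 and 0.942.

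Egr2, a close relative of Egr1 that is best known from myelinating glia, separated by a narrow margin. Its signal was 6.30, 6.30 and 6.13 in the wild-type replicates and 6.76, 6.35 and 6.37 in the null replicates. null replicate 1 stood above the rest, and the other 2 null arrays lay just above the 2 higher wild-type arrays. The difference was 0.25 (SE 0.13, adjusted p = 0.873 in limma), and without null replicate 1 it was 0.12. That array also had the highest Egr1 signal and was the array with high Xist, and the part of this in either difference was not tested. Egr1 kept a difference of 0.59 without it. The other family members Egr3 and Egr4, which belong to a wider list of rapid response genes, differed by 0.19 and -0.06, and their groups overlapped.

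Fos, the classical activity marker, pairs with Jun proteins to form AP-1, and its genotypes overlapped. Its signal was 5.51, 6.57 and 5.78 in the wild-type replicates and 6.24, 6.12 and 6.38 in the null replicates. The highest value of all was that of wild-type replicate 2, and the lowest 2 were those of the other wild-type arrays. Group means of 5.95 ± 0.55 and 6.25 ± 0.13 (SD, n = 3 per genotype) differed by 0.30 (SE 0.28, adjusted p = 0.873 in limma). Its size depended on the wild-type arrays: it was 0.07 without wild-type replicate 1 but 0.61 when wild-type replicate 2 was left out.

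The other AP-1 genes of the set had small differences. Fosb, a relative of Fos whose product builds up under repeated stimulation, read 5.30, 5.36 and 5.09 in the wild-type replicates. On all 3 null arrays the deposited value of Fosb was 5.32, identical to every decimal. Such a repeated value stood on the 3 null arrays for 4.06% of the genes, so its SD of 0 does not measure precision. The difference of Fosb was 0.07 (SE 0.08). Junb, the partner that often restrains AP-1, had wild-type signals of 7.55, 7.60 and 7.54 and null signals of 7.58, 7.46 and 7.54. Its difference was -0.03 (SE 0.06), and the genotypes overlapped for both genes.

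Nr4a1, an orphan nuclear receptor induced by calcium and growth signals, had signals of 8.36, 9.46 and 8.51 in the wild-type replicates and 8.99, 9.71 and 9.72 in the null replicates. Wild-type replicates 1 and 3 were the 2 lowest arrays, and wild-type replicate 2 lay above null replicate 1. Group means of 8.78 ± 0.60 and 9.47 ± 0.42 (SD, n = 3 per genotype) differed by 0.70 (SE 0.36, unadjusted p = 0.103, adjusted p = 0.873 in limma). With single arrays left out the difference ran from 0.49 without wild-type replicate 1 to 1.04 without wild-type replicate 2. Ier2, a nuclear protein gene among the quickest to respond to growth factors, read 6.34, 6.48 and 6.49 in the wild-type replicates and 6.68, 6.94 and 6.53 in the null replicates. All null arrays lay above all wild-type arrays, null replicate 3 only slightly. The difference of 0.28 (SE 0.12) had an unadjusted p of 0.0556 and an adjusted p of 0.873 in limma, and it was 0.17 without null replicate 2.

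Npas4 and Arc are the members most tied to neurons, and neither had a higher mean in null VNOs. Npas4, a neuronal factor that calcium entry induces, had wild-type signals of 4.43, 4.33 and 4.33 and null signals of 4.33, 4.29 and 4.33. Its signals lay below the median of each array, and it was the member that fell out when the dimmest 30% of genes were left out. The same value, 4.33, stood on 4 of the 6 arrays. The difference of Npas4 was -0.05 (SE 0.05), which says little at so low a signal. Arc, whose product moves glutamate receptors off the synapse, had wild-type signals of 6.92, 7.08 and 6.96 and null signals of 6.93, 6.82 and 6.92. The difference of Arc was -0.10 (SE 0.07, adjusted p = 0.873 in limma), and its genotypes overlapped. It was -0.05 without wild-type replicate 2 and -0.06 without null replicate 2.

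Dusp1 encodes a phosphatase that switches MAP kinases off, so it is both a target and a brake of the pathway. It had the largest difference of the set and the widest spread within a genotype. Its signal was 8.20, 9.67 and 7.86 in the wild-type replicates and 9.10, 9.51 and 9.61 in the null replicates. As for Fos, wild-type replicate 2 was the highest of all 6 arrays and the other wild-type arrays were the lowest. Group means of 8.58 ± 0.97 and 9.41 ± 0.27 (SD, n = 3 per genotype) differed by 0.83 (SE 0.49, adjusted p = 0.873 in limma). The wild-type arrays alone spanned 1.82, more than the difference between genotypes. The difference was 0.47 without wild-type replicate 3 but 1.38 when wild-type replicate 2 was left out.

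**Figure D2:**
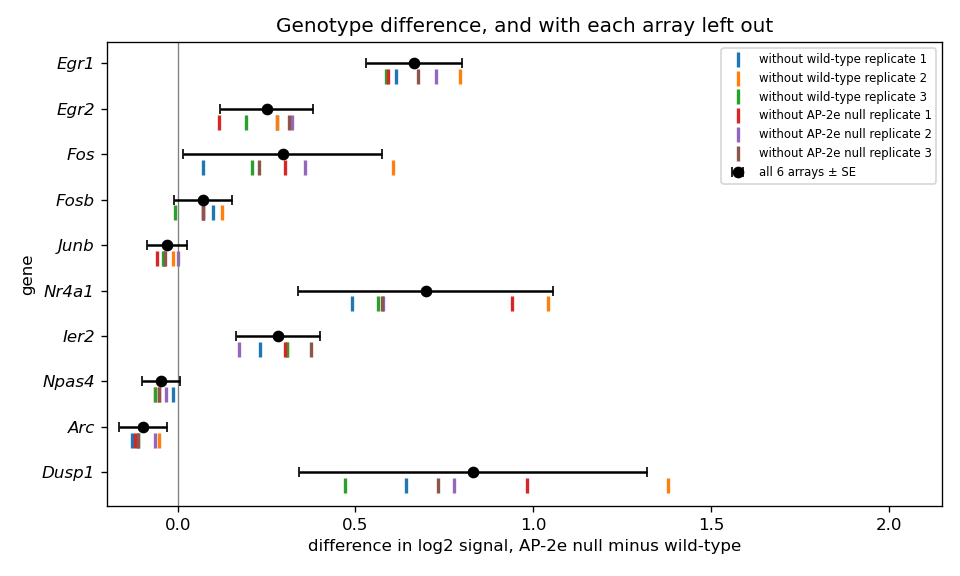
Difference in log2 signal, AP-2e null minus wild-type, for each gene: the black point is the value over all 6 arrays with its SE from limma, and each coloured tick is the value with 1 array left out. Fos, Nr4a1 and Dusp1 reach their highest values, 0.61, 1.04 and 1.38, without wild-type replicate 2, while Egr1 stays between 0.59 and 0.79.

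The size of several differences moved with wild-type replicate 2. It was the highest wild-type array for 7 of the 10 genes, against 25.1% of all genes. It exceeded the mean of the other wild-type arrays by 1.65 for Dusp1, 1.03 for Nr4a1, 0.93 for Fos and 0.39 for Egr1. An excess of at least 1 was found for 2 of the 10 and for 0.586% of all genes. Without that array 4 of the 10, Egr1, Dusp1, Fos and Nr4a1, had an unadjusted p under 0.05 with a higher null mean, against 2.41% of all genes. In that fit 0 of the 10 passed over all genes (smallest adjusted p = 0.257 in limma), as against 0.0766% of all genes. These counts were made after the values were seen, and leaving out that array leaves 2 wild-type samples.

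Part of the supporting cell markers followed a similar order of arrays, and others did not. Supporting cells and glands of nasal epithelium detoxify odorants with enzymes such as Cyp2g1. Cyp2g1 read 4.33, 10.13 and 7.41 in the wild-type replicates and 7.27, 9.70 and 10.01 in the null replicates. Null replicates 2 and 3, with wild-type replicate 2, were thus the 3 highest arrays for Cyp2g1, as they were for Nr4a1 and Dusp1. For Egr1 and Fos null replicate 1 was among the 3 highest arrays. The 8 measured markers of the list had means of 7.41, 9.03 and 7.84 in the wild-type and 7.72, 8.69 and 8.66 in the null replicates. Null replicate 1 thus lay below wild-type replicate 3 for the marker mean. The mean of the immediate early set was 6.97 on null replicate 1 and 6.55 on wild-type replicate 3. Cyp2g1, Gpx6, Cyp1a2 and Ermn varied most, and Cbr2, Sox2 and Notch2 little. Sult1c1 read 9.19, 9.23 and 7.81 in the wild-type and 8.32, 8.91 and 8.49 in the null replicates. Wild-type replicate 2 was the lowest array for Notch2, at 8.78, and Sox2 was highest on wild-type replicate 1, at 10.65. Cyp2g1 and Gpx6 are also made in the main olfactory epithelium. The sources used here do not say whether such tissue was taken with the VNO, and its part in these values, and in what the marker mean stands for, was not tested. In a whole organ, fewer cells of a type and less RNA per cell cannot be told apart.

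With the mean of these markers as a covariate, added after the values were seen, the differences were 0.64 for Egr1, 0.51 for Nr4a1, 0.60 for Dusp1 and 0.17 for Fos. Egr1 and Nr4a1 then had unadjusted p of 0.00767 and 0.000994, and 0 of the 10 passed (smallest adjusted p = 0.248 in limma). Of all 22180 genes, 1318 had an unadjusted p under 0.05 in that limma fit, and 39 passed. Means of the endothelium list lay between 7.34 and 7.53 in wild-type and between 7.48 and 7.58 in null VNOs. Fibroblast markers lay between 10.86 and 10.96 and between 10.94 and 11.13, and macrophage markers between 7.37 and 7.53 and between 7.52 and 7.59. Ensheathing glia and Schwann cell markers lay between 6.13 and 6.66 and between 6.43 and 6.96, and smooth muscle and pericyte markers between 9.07 and 9.36 and between 9.21 and 9.39. Means of the 10 VNO neuron markers lay between 9.380 and 9.631 in wild-type and between 9.266 and 9.378 in null VNOs. All null arrays thus lay below all wild-type arrays for that mean, by a narrow margin. For 3 of the markers the genotypes were separated downward, and for 0 upward, against 7.06% of all genes in either direction. Of these markers 3 had a higher null mean, and the median difference was -0.08, from -0.68 for Gnao1 to 0.11 for Gnai2. Neutrophil markers lay between 7.50 and 8.46 in wild-type and between 8.29 and 8.56 in null VNOs, multiciliated cell markers between 7.46 and 8.09 and between 7.42 and 7.61, and skeletal muscle markers between 4.99 and 5.83 and between 4.81 and 5.26. Wild-type replicate 2 had the highest muscle mean, 5.83, and was the highest wild-type array for 7 of the 8 muscle markers. Cartilage markers read 8.23 on null replicate 2 and between 5.86 and 6.23 elsewhere. The part of these cell types in the differences of the set was not tested.

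**Figure D3:**
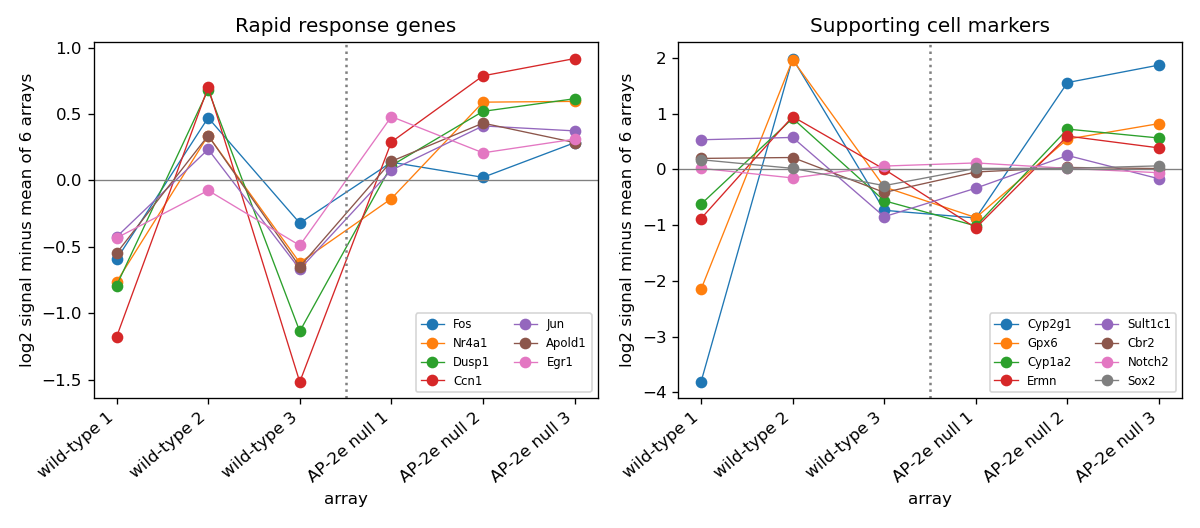
Log2 signal minus the gene's mean over the 6 arrays, for 7 rapid response genes (left) and the 8 supporting cell markers (right); lines join the points of a gene and imply no order of replicates. Wild-type replicates 1 and 3 are the lowest arrays for all 7 rapid response genes shown. Only 5 of the 10 genes of the set and 13 of 43 other rapid response genes had this order, so those shown do not stand for the lists. Cyp2g1 and Gpx6 are highest on wild-type replicate 2.

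The wider family of rapid response genes had mostly small differences. Of 43 other measured genes of this kind, 27 had a higher mean in null VNOs, against 49.4% of all genes, with a median difference of 0.07. None passed over all genes in limma, and 2 had an unadjusted p under 0.05, Rgs2 and Mafk, which is near the 4.4% of all genes. Rgs2, which shortens G protein signals, read 8.66, 8.74 and 8.74 in the wild-type and 8.84, 9.03 and 9.12 in the null replicates, so all null arrays lay above all wild-type arrays. Its difference of 0.28 was 0.14 with its probe sets averaged (unadjusted p = 0.0688). Mafk, a small Maf factor, was separated as well, with a difference of 0.23 (unadjusted p = 0.0406). In all, null arrays were separated upward for 3 of the 43 and downward for 2, against 7.06% of all genes in either direction. Jun, the main partner of Fos, differed by 0.57 (SE 0.25, unadjusted p = 0.0628), and Klf6 by 0.27. Both had wild-type replicate 2 above null replicate 1. Wild-type replicate 2 was the highest wild-type array for 30 of the 43.

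Ccn1, a secreted matrix protein gene that growth factors and stretch induce, had the largest difference of that list. It read 8.32, 10.20 and 7.99 in the wild-type replicates and 9.79, 10.29 and 10.42 in the null replicates, a difference of 1.33 (SE 0.60, unadjusted p = 0.0732, adjusted p = 0.873 in limma). Without wild-type replicate 2 it was 2.01 (unadjusted p = 0.000689), and without wild-type replicate 3 it was 0.90. Its order of arrays was close to that of Dusp1, with wild-type replicates 1 and 3 far below the rest. Its relative Ccn2 differed by 0.58 and Apold1, an endothelial early response gene, by 0.57, both with overlapping genotypes. Ccn2 and Apold1 are named after their values were seen. Nr4a2 and Nr4a3, the closest relatives of Nr4a1, went different ways, at 0.28 and -0.22, and did not pass.

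Wild-type replicates 1 and 3 were the 2 lowest of the 6 arrays for 5 of the 10 genes (Egr1, Fos, Fosb, Nr4a1 and Dusp1), for 13 of the 43 other rapid response genes and for 8 of 19 feedback inhibitors. Over all genes the share was 5.61%. Later effector genes, upstream factors, and heat shock and stress genes had this order for 1 of 32, 1 of 30 and 0 of 18. The order was looked for after the values were seen, and lists of genes that respond together do not give independent counts.

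Genes that dampen the pathway had small differences. Of 19 measured feedback inhibitors and co-repressors, 14 had a higher null mean, against 49.4% of all genes. The median difference of the 19 was 0.12, and 0 passed in limma. An unadjusted p under 0.05 was found for 1 of the 19, against 4.4% of all genes. That gene was Rgs2, which the rapid response list also holds, as it does Zfp36, Ier3 and Sik1. Dusp6, another MAP kinase phosphatase, differed by 0.28, by 0.43 without wild-type replicate 2, by 0.18 without wild-type replicate 1 and by 0.13 with its probe sets averaged. The Sprouty genes Spry1 and Spry4, inhibitors of receptor tyrosine kinase signals, differed by 0.20 and 0.16. Nab1 and Nab2, the co-repressors of Egr factors, differed by -0.03 and 0.07.

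Later effector genes, which neurons switch on after the first wave, had a median difference near 0. Of 32 measured, 14 had a higher mean, against 49.4% of all genes, and the median was -0.02. None passed in limma, and 2 had an unadjusted p under 0.05 in opposite directions, against 4.4% of all genes. Grasp, a scaffold of glutamate receptors, differed by 0.20, and Kirrel2, an adhesion gene whose level follows activity in olfactory axons, by -0.35 with all null arrays below all wild-type arrays. Nptx2, a secreted synaptic organiser, differed by -0.31, and by -0.17 without null replicate 1 and -0.20 without wild-type replicate 3. Penk, the enkephalin precursor, differed by 0.53, with null replicate 2 at 7.63 and the other 5 arrays between 6.26 and 6.75, and by 0.20 without that array. Bdnf, the growth factor most often used as a late activity marker, read 4.69 on wild-type replicate 3 and 4.65 on all other arrays. That repeated value was identical to every decimal. The signals of Bdnf lay below the median of each array, so they say little about a difference.

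Differences of upstream factors were small. Of 30 measured signalling and transcription factors, a list that also holds Npas4, 20 had a higher mean, against 49.4% of all genes. The differences of the 30 lay between -0.18 and 0.17. None passed in limma, and 0 had an unadjusted p under 0.05, against 4.4% of all genes. Null arrays were separated upward for 3 of the 30, Elk1 and Mef2a among them, and downward for 1, Braf. Of all genes, 7.06% were separated in either direction. The ternary complex factors Elk1 and Elk3, which sit with SRF on the CArG box, differed by 0.12 and 0.17 (Elk3 by 0.08 without wild-type replicate 1), the neuronal factor Mef2a by 0.10 and the kinase Braf by -0.10. Srf differed by 0.11 and Creb1 by 0.08.

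Heat shock and stress genes, which handling of tissue can raise, had small differences in both directions. The part of handling in these differences or in those of the set was not tested. Of the 18 measured genes of this list, 7 had a higher mean, against 49.4% of all genes, and the median difference was -0.05. In limma 0 passed or had an unadjusted p under 0.05, against 0.225% and 4.4% of all genes. Cdkn1a, the cell cycle inhibitor, differed by -0.23, the stress genes Ddit4 and Ddit3 by -0.23 and -0.25, and Hmox1, the haem-degrading enzyme, by 0.15. Without wild-type replicate 3 Ddit4 and Ddit3 differed by -0.14 and -0.06, and without null replicate 3 Hmox1 differed by 0.08. The inducible heat shock gene Hspa1a read 7.31 on null replicate 2 and between 7.06 and 7.07 on all other arrays. Hspa1b of the same list read 7.45, 7.40 and 7.46 in the wild-type and 7.07, 7.86 and 7.05 in the null replicates, a difference of -0.11.

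**Figure D4:**
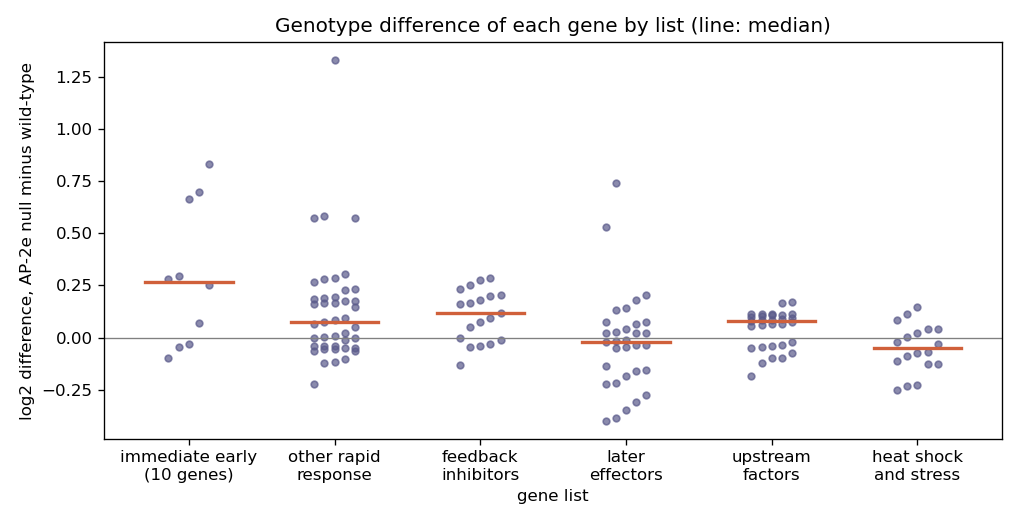
Difference in log2 signal, AP-2e null minus wild-type, of each measured gene (points) in 6 gene lists, with the median of each list as a line; sideways spread only separates points. The medians are 0.27 for the 10 immediate early genes, 0.07, 0.12, -0.02, 0.08 and -0.05 for the other lists from left to right, and the highest point is Ccn1 at 1.33.

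Genes with a pattern like that of the set were ranked by Pearson r with the mean centred signal of the 10 genes over the 6 arrays, among 11082 genes above the median signal. The 6 nearest were Abat (r = 0.993), Mtss1 (r = 0.992), Ccn1 (r = 0.991), Ints6 (r = 0.990), Arhgef10 (r = 0.988) and Thsd1 (r = 0.985). An r over 0.9 was reached by 119 genes, or 1.07% of those ranked, and the 6 points share genotype, array and sample. Genes with wide spread weigh most in that mean, so it follows Dusp1, Nr4a1 and Fos more than Arc or Npas4. Of the 6, Ccn1 alone varied over a range like that of Dusp1. The differences of the other 5 between genotypes lay between 0.08 for Ints6 and 0.26 for Arhgef10, and none passed in limma. With probe sets averaged, Arhgef10 differed by 0.096 and Abat by 0.080. Ints6 had the same value, 8.18, on all 3 null arrays, so its r rests in part on a repeated value.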

How the data were processed

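Per the labels' protocols, total RNA of whole VNOs was biotin-labelled with Affymetrix whole-transcript chemistry. Deposited values are log2 signals, for 41345 probe sets. Per the submitters' processing notes the authors used RMA and the Transcriptome Analysis Console; the sources used here give no version, setting or genome build. The platform annotation named 1 gene for 23521 probe sets, and the probe set with the highest mean was kept for each of 22180 genes. The genotype test was a 2-sided limma fit without covariates (limma 3.58.1, R 4.3.3), with Benjamini-Hochberg adjustment over all genes and a threshold of 0.05. Each difference is null minus wild-type. When arrays of this comparison were simulated with 22180 genes, 85 of 100 genes changed by 1 on the log2 scale were recovered, and 98 of 100 changed by 2. In that simulation 7 unchanged genes were called. The changed genes were picked at random, and values were drawn independently, with no effect shared by the genes of an array. These rates therefore do not hold for genes of wide spread such as Dusp1 (SE 0.49).

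The genes of the set and the lists were chosen with earlier results of these data known. Named genes were the 10 genes, up to 4 genes per list with the smallest unadjusted p, the 6 genes most like the set in pattern, and Tfap2e; others are named for their role or after their values were seen. Alternatives were 3 other normalizations, averaged probe sets, a filter on the dimmest 30%, other moderation, array weights, a plain one-way test, leaving out each array, and a block for the replicate number. A covariate for supporting cell markers was added after seeing the data. The main fit did not treat replicate numbers as pairs. Correlations of deviations were 0.04, 0.11 and 0.02 for arrays of the same number and from -0.19 to 0.12 for the others. The sample titles do not say whether the numbers pair the samples, and these correlations cannot decide it. Plots were drawn with matplotlib 3.10.9.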

Additional observations from a re-analysis of the deposited data

How the results depend on the processing

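Of the 10 immediate early genes, 0 passed over all genes under any of the 16 alternatives, and between 6 and 8 had a higher null mean. The number of all genes past the threshold, 50, went to between 17 and 32 with single arrays left out, to 4 in the plain one-way test and to 22 with the replicate number as a block. With that replicate block 0 of the 10 genes passed and 7 had a higher mean. Leaving out an array leaves fewer samples, and the cause of the other lower counts was not tested. For the 36 genes tested one by one, 573 of 575 differences kept their direction and their side of the threshold. The exceptions are Fosb and Junb. None of the 36 passed in the main fit, so the side kept was that of not passing. Genes with fully separated genotypes cannot change direction when 1 array is left out. The count does not describe sizes: with single arrays left out, Fos lay between 0.07 and 0.61 and Egr1 between 0.59 and 0.79. With single arrays left out, Fosb lay between -0.0069, when wild-type replicate 3 was left out, and 0.12. Junb lay between -0.059 and 0.0011, the latter without null replicate 2. Differences of low signals such as that of Npas4 may be understated.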

Other observations

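S100a5, a calcium-binding protein gene whose level follows activity in olfactory sensory neurons, had the largest difference of the later effector list, 0.74, and is named after its value was seen. It read 4.20, 8.62 and 6.55 in wild-type replicates 1, 2 and 3 and 5.60, 7.72 and 8.27 in null replicates 1, 2 and 3. The SE of its difference, 1.28, was larger than the difference (unadjusted p = 0.584, adjusted p = 0.916 in limma). Its order of arrays was that of the supporting cell marker Gpx6 in the wild-type replicates and in the null replicates alike: Gpx6 read 5.04, 9.16 and 6.88 in wild-type and 6.33, 7.74 and 8.02 in null VNOs. The clock gene Per1, which stimuli also induce, had a spread of 1.33 among wild-type and 1.07 among null arrays with a difference of -0.0025 between genotypes. Its lowest array was null replicate 1 at 8.06, and its highest was wild-type replicate 2 at 9.41. Sik1, a kinase induced by cAMP, spread by 0.81 and 0.86 with a difference of 0.17. S100a5 and Gpx6 are also made in the main olfactory epithelium, and the sources used here do not say whether such tissue was taken with the VNO. The part of that tissue and of supporting cells in these spreads was not tested.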
